A study of Mus musculus with 11 samples.

Results

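The genes of Nodal and Lefty signalling were followed in mouse embryonic stem cells (ESCs) through 8 members: Nodal, Lefty1, Lefty2, Tdgf1, Acvr1b, Acvr2b, Smad7 and Skil. They were chosen by symbol, and all 8 were present among the 23284 genes listed for each of 11 RNA-seq libraries and above the limit for testing. Wild type (WT) ESCs and ESCs with Tet1, Tet2 and Tet3 knocked out (TKO) were each sampled at 0 h (water vehicle) and 4 h of α-amanitin. This toxin blocks RNA polymerase II and was given at 10 µg/ml. Each of these 4 groups had 2 ribodepleted libraries. Another group was made up of 3 polyA-selected libraries of untreated WT ESCs. All cells were grown on gelatin in medium with serum and leukemia inhibitory factor (LIF), so signals from serum were shared by every group. The TKO cells were a line made in earlier work, and how many clones it represents is not given in the sources used here, so genotype cannot be told apart from differences between the 2 lines. The treatment was designed to follow how RNA levels change once transcription is blocked.

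Nodal is a secreted ligand of the TGF-β family that binds activin receptors together with the co-receptor Cripto, the product of Tdgf1, and acts through Smad2 and Smad3 with Smad4 and FoxH1. Lefty1 and Lefty2 are secreted antagonists that are themselves induced by the pathway, which makes a negative feedback loop, and Smad7 and SnoN (encoded by Skil) restrain the signal inside the cell. In ESCs the pathway is active during self-renewal, and in the embryo it patterns the germ layers and the left-right axis.

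Levels are given in TPM, a share of the library's transcripts corrected for gene length, as deposited. The ribodepleted libraries held 25507874 to 29781366 recovered whole reads each, and the polyA libraries 72639837 to 82129168. Among the ribodepleted pairs, the 2 TKO libraries at 4 h differed most from each other, with a chi-square statistic of 7.4 times its degrees of freedom against 1.53 to 4.32 in the other pairs. Tet1 lay at 108.5 to 147.7 TPM in WT and 21.3 to 32.8 TPM in TKO ribodepleted libraries, and Tet2 at 40.4 to 57.2 and 5.91 to 8.32 TPM. Tet3 was at 1.06 to 1.64 TPM in both genotypes, too low to check the label, and which bases were deleted is not given in the sources used here. The ESC label was met by the pluripotency markers, whose 9 genes (Tdgf1 among them) summed to 4399 to 4646 TPM in all 8 ribodepleted libraries. By contrast, 8 endoderm markers summed to at most 8.94 TPM in any library. Most of the pluripotency sum was Dppa5a and Pou5f1. At 0 h their means were 1603 and 1167 TPM in WT and 1991 and 988 TPM in TKO. A steady sum does not show that each marker was steady, and markers that differed between genotypes are given below. In bulk RNA, fewer cells expressing a gene and less RNA per cell cannot be told apart.

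Lefty1 and Lefty2 are near copies, so their sequences decide how far their levels can be separated. In the NCBIM37 assembly (the build also called mm9), Lefty1 lies on chromosome 1 at 182865153 to 182868531 and Lefty2 at 182823239 to 182829234, both on the plus strand and 35918 bp apart with 1 annotated gene between them. Each has 4 exons and 1107 coding bases, of which 1017 (91.9%) were identical. The 60-base window with the most differences is in exon 1, at coding positions 34 to 93 (counted from 1 at the A of the start codon), at chr1:182865274-182865333 for Lefty1 and at chr1:182823348-182823407 for Lefty2. It is shown because reads from there tell the genes apart at 18 bases, set in capitals.
Lefty1, exon 1: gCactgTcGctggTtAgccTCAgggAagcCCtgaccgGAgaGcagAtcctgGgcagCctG
Lefty2, exon 1: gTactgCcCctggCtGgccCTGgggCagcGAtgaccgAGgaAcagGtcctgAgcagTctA
No window of 150 bases, the read length of the ribodepleted libraries, was shared by the 2 transcripts, whereas 17.9% of the 50-base windows of Lefty1 and 11.6% of those of Lefty2 were. Stretches of Lefty2 of at least 150 bases matched 4 other places in the genome at 90% identity or more, Lefty1 among them. How reads matching both genes were counted is not given in the sources used here.

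At 0 h in WT ribodepleted libraries, the members spanned a wide range of levels. Tdgf1, the co-receptor, was the most abundant of the members in every library. Its mean of 661.0 TPM at 0 h in WT was above that of 99.2% of listed genes. The antagonists followed, with means of 120.8 TPM for Lefty1 and 109.5 TPM for Lefty2, and then Skil at 75.4 TPM. The ligand itself, Nodal, averaged 54.2 TPM, below both of its antagonists. The inhibitory Smad7 averaged 39.8 TPM. The receptors were lowest, with 24.5 TPM for the type II receptor gene Acvr2b and 13.6 TPM for the type I receptor gene Acvr1b. The lowest member value in a ribodepleted library rested on at least 507 recovered reads.

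**Figure D1:**
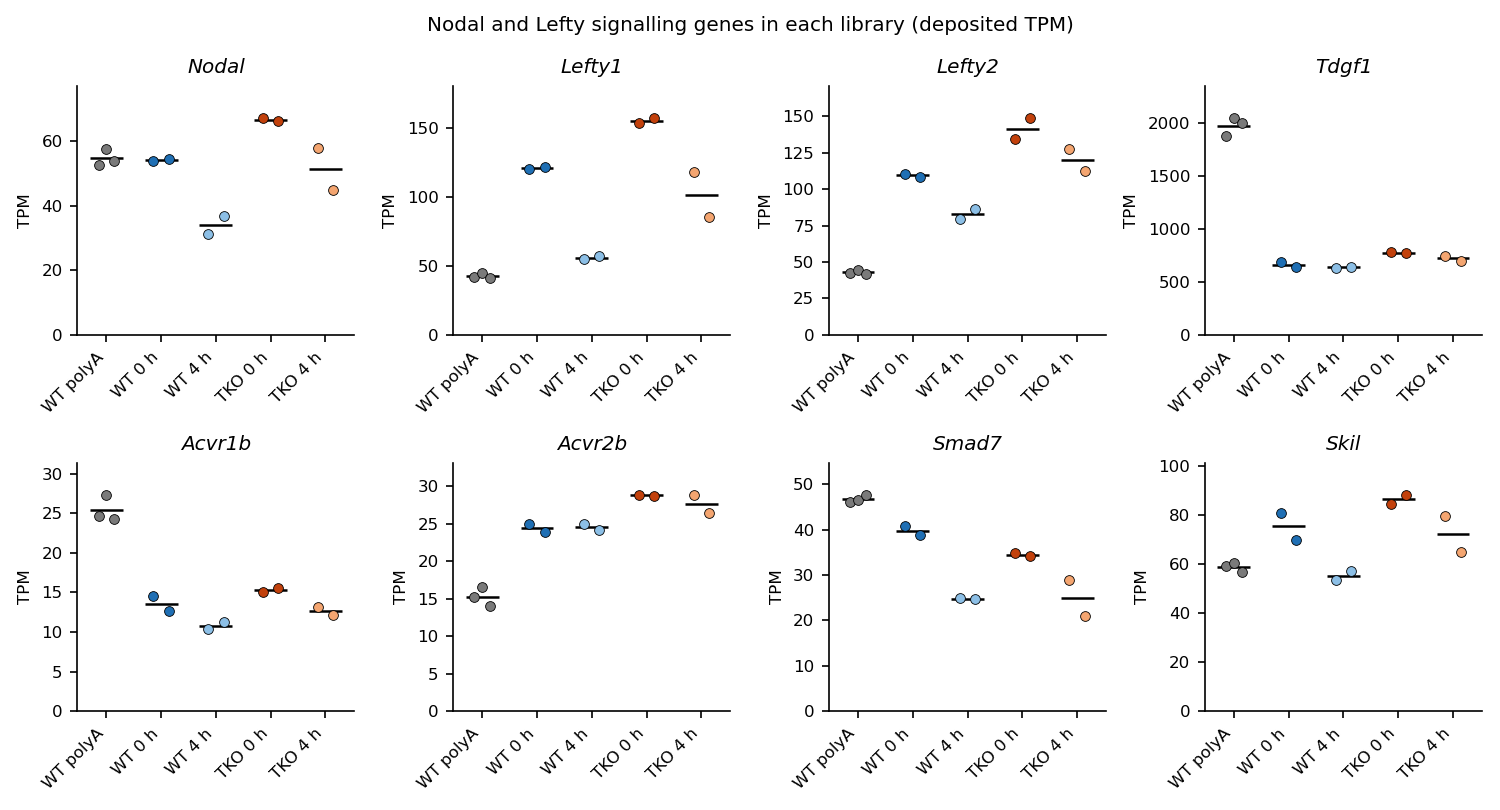
Deposited TPM (vertical axes, from 0, with a scale for each gene) of the 8 genes in the 11 libraries, by group (horizontal axes), where each point is a library and each bar a group mean. Lefty1 sits at 120.1 and 121.4 TPM in WT at 0 h and at 54.8 and 56.8 TPM at 4 h, and Tdgf1 is above 1877 TPM in all polyA libraries.

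To see how the members changed with α-amanitin, WT libraries at 4 h were compared with those at 0 h. How far transcription was blocked by then, and whether equally in both genotypes, was not tested. Of the 8 members, Lefty1 fell by the criteria used throughout, an adjusted p under 0.05 and a change over 1.5-fold, and none rose. Over all 12467 genes tested, 2.01% were called lower and 0.0882% higher. By the adjusted p alone, 5 members were lower (Lefty1, Nodal, Smad7, Skil and Lefty2) and 1 was higher (Acvr2b), where 15.8% of all genes were lower and 21.9% higher (1965 and 2730 genes, or 3145 and 397 with deposited TPM). Without WT replicate 1 at 4 h, Lefty1 alone was lower by the adjusted p and no member higher (277 and 103 genes), and without WT replicate 1 at 0 h, 3 members were lower and 0 higher (788 and 737 genes). The median log2 change of the members was -0.26, against 0.03 over all genes tested. TPM are relative within a library, so these are changes against the other transcripts, and a loss shared by all transcripts is not visible.

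Nodal (chromosome 10, 60880720 to 60888086, plus strand), the ligand, was at 53.9 and 54.4 TPM in WT at 0 h and at 31.3 and 36.9 TPM at 4 h. Both treated libraries were below both untreated ones. With 2 libraries a group, such a lack of overlap arises easily without a change, here and below. Its share over all genes was not counted, so it is description only. The log2 fold change of Nodal in limma was -0.50 (SE 0.09, adjusted p = 0.00737), a 1.42-fold difference that stopped short of the fold limit. Only 3.75% of genes had a lower value.

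Of the antagonists, Lefty1 was at 120.1 and 121.4 TPM at 0 h and at 54.8 and 56.8 TPM at 4 h. The replicates lay within a few TPM of each other and the groups were far apart. Its log2 fold change was -0.94 (SE 0.10, adjusted p = 0.00231, limma), a 1.92-fold fall, and 0.666% of genes had a lower value. Lefty2, at 110.7 and 108.3 TPM at 0 h, was at 79.8 and 86.5 TPM at 4 h, again with no overlap. Its log2 fold change was -0.24 (SE 0.06, adjusted p = 0.0149). The 95% intervals of the 2 antagonists, -1.17 to -0.72 for Lefty1 and -0.37 to -0.11 for Lefty2, did not overlap. The difference between times was thus larger for Lefty1 than for Lefty2, although 91.9% of their coding bases are identical.

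Tdgf1 (chromosome 9, 110842114 to 110848662, minus strand), which encodes the co-receptor, was at 686.7 and 635.4 TPM at 0 h and at 630.6 and 642.2 TPM at 4 h in WT. These values overlapped. After scaling by size factors, its log2 fold change was 0.11 (95% interval -0.003 to 0.21, adjusted p = 0.11), and the sign turned to -0.0536 with deposited TPM and -0.0731 with quantile normalisation. Tdgf1 has near copies at 2 other places in the genome, the longest of 1009 bases at 96.7% identity on chromosome 16 where the pseudogene Tdgf1-ps2 is annotated, so its level is uncertain.

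Acvr1b (chromosome 15, 101004556 to 101043032, plus strand) encodes the type I receptor ALK4. It was at 14.5 and 12.7 TPM at 0 h and at 10.3 and 11.2 TPM at 4 h. The treated libraries were lower without overlap, and the log2 fold change of -0.16 (SE 0.07) had an adjusted p of 0.0867 in limma. Acvr2b (chromosome 9, 119311562 to 119342619, plus strand) encodes a type II receptor that phosphorylates the type I receptor. Acvr2b was at 25.0 and 23.9 TPM at 0 h and at 25.0 and 24.2 TPM at 4 h, values that overlapped. As scaled TPM they did not, at 24.12 to 24.24 at 0 h and 26.28 to 28.08 at 4 h. Its log2 fold change was 0.16 after scaling (SE 0.05, adjusted p = 0.0388, limma) and 0.18 with quantile normalisation (adjusted p = 0.0378), but 0.0079 with deposited TPM (adjusted p = 0.941).

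Inside the cell, Smad7 (chromosome 18, 75527183 to 75555589, plus strand), an inhibitory Smad that blocks the activated receptors, was at 40.7 and 38.8 TPM at 0 h and at 24.9 and 24.7 TPM at 4 h. The groups were well separated. Its log2 fold change of -0.51 (SE 0.10, adjusted p = 0.00839, limma) was close to that of Nodal. Skil (chromosome 3, 30993980 to 31021499, plus strand), whose product SnoN represses Smad target genes, was at 81.0 and 69.8 TPM at 0 h and at 53.6 and 57.1 TPM at 4 h. Its log2 fold change was -0.28 (SE 0.08, adjusted p = 0.0218, limma), and the untreated replicates differed from each other by more than the treated ones did.

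The choice of scale mattered for the number of calls. With deposited TPM, the median of all genes shifted to -0.11 on the log2 scale, and Nodal (-0.66) and Smad7 (-0.66) passed the fold limit together with Lefty1 (-1.10), 3 members in all. Relative to that shift the changes were -0.55 for Nodal, -0.55 for Smad7 and -0.99 for Lefty1. Nodal also passed the limit without WT replicate 2 at 4 h (-0.59, adjusted p = 0.0234), giving 2 members called.

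**Figure D2:**
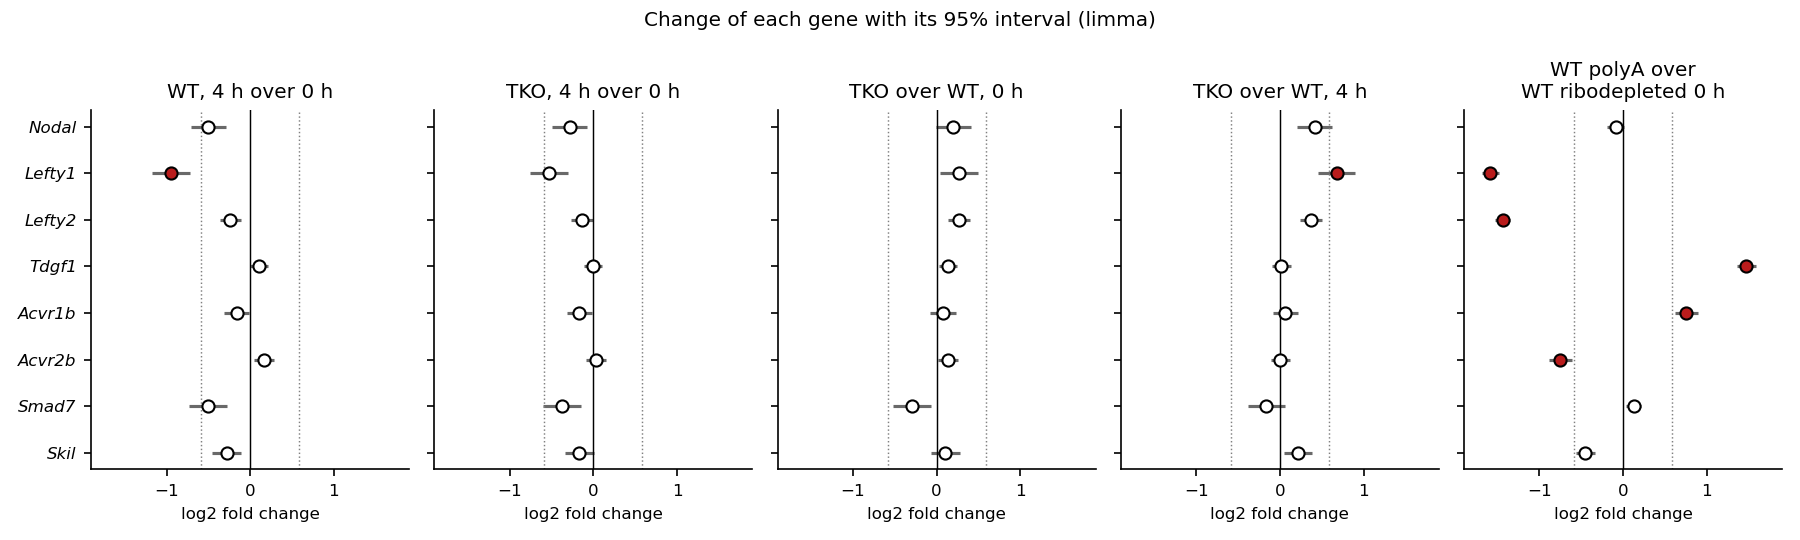
Log2 fold change (horizontal axes, the same in all panels) of each gene in 5 comparisons of groups, with 95% intervals from limma as bars, filled points where a gene was called, and dotted lines at 1.5-fold. Lefty1 is filled in the WT treatment panel at -0.94 and in the panel of TKO over WT at 4 h at 0.68, and no gene is filled in the TKO treatment panel or that of TKO over WT at 0 h.

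The same treatment was then examined in TKO ESCs, where no member passed the criteria or the adjusted p alone. Few genes of any kind did, with 0% called higher and 0.16% lower, and with 0% higher and 0.265% lower by the adjusted p alone, although 3110 genes had an unadjusted p under 0.05. This too rested on 1 library: without TKO replicate 1 at 4 h, Lefty1, Smad7, Nodal and Skil, 4 members, were lower by the adjusted p, with 1225 genes lower and 1575 higher in place of 33 and 0. With voom, 3 members were lower, with 503 genes lower and 234 higher. The median log2 change of the members was -0.17, against 0.01 over all genes.

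Lefty1 was at 153.6 and 156.9 TPM at 0 h and at 117.7 and 85.3 TPM at 4 h. Both treated libraries were below the untreated ones, but they lay far from each other. The log2 fold change was -0.53 (SE 0.10, adjusted p = 0.0729, limma). Without TKO replicate 1 at 4 h it was -0.71 (adjusted p = 0.00102) and the gene was called, and without replicate 2 it was -0.34. With deposited TPM, Lefty1 was also called (-0.63, adjusted p = 0.0488).

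Nodal was at 67.0 and 66.2 TPM at 0 h and at 57.9 and 44.7 TPM at 4 h in TKO, a log2 change of -0.29 (SE 0.09, adjusted p = 0.135, limma). Smad7, at 34.9 and 34.2 TPM at 0 h, was at 29.0 and 20.9 TPM at 4 h, a log2 change of -0.38 (SE 0.10, adjusted p = 0.118). In both genes the treated libraries were lower without overlap, and replicate 2 was the lower of the pair, as for Lefty1. The libraries stood in the same order for Lefty2 (-0.14), Skil (-0.17) and Acvr1b (-0.17). How many of all genes showed this order was not counted, so it does not count as support for a change. Tdgf1 (-0.0073) and Acvr2b (0.03) were near zero, with 95% intervals of -0.12 to 0.10 and -0.08 to 0.15.

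Whether the response to treatment differed between genotypes was tested directly by an interaction term. No member was called, nor was any other gene in either direction (0% of 12467), with 938 genes at an unadjusted p under 0.05 and 0.532 as the smallest adjusted p. Limma voom on recovered reads also called 0 genes, and without a filter on low values 2 were called in each direction, none of them a member. The largest member interaction was that of Lefty1, at 0.41 (95% interval 0.09 to 0.73, unadjusted p = 0.0169, adjusted p = 0.662), meaning a smaller decline in TKO, followed by Nodal at 0.22 (adjusted p = 0.687). Smad7 (0.13), Skil (0.11), Lefty2 (0.10), Acvr1b (-0.0103), Tdgf1 (-0.11) and Acvr2b (-0.13) had adjusted p of 0.687 or more. Without TKO replicate 2 at 4 h, the interaction of Lefty1 was 0.60 with an adjusted p of 0.0387, and without replicate 1 it was 0.23. A difference between genotypes in the response of Lefty1 was thus not established, and its call rested on which TKO library at 4 h was used.

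**Figure D3:**
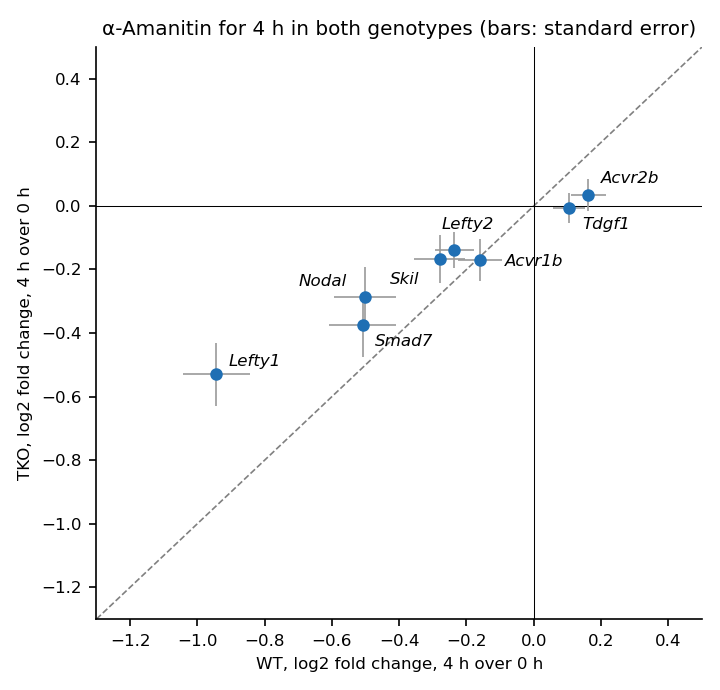
Log2 fold change from 0 h to 4 h of α-amanitin in WT (horizontal axis) and TKO (vertical axis) for each gene, with standard errors as bars and a dashed line where both are equal. Lefty1 lies above the line at -0.94 in WT and -0.53 in TKO, as does Nodal at -0.50 and -0.29.

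Ratios of 2 genes within a library do not depend on the scaling between libraries. The TPM ratio of Lefty1 to Lefty2 was 1.09 and 1.12 in WT at 0 h and 0.687 and 0.657 at 4 h. In TKO it was 1.14 and 1.06 at 0 h and 0.921 and 0.757 at 4 h. Thus Lefty1 was above Lefty2 in all untreated ribodepleted libraries and below it in all treated ones. The ratio of Lefty1 to Nodal moved the same way, from 2.23 in both WT libraries at 0 h to 1.75 and 1.54 at 4 h, and from 2.29 and 2.37 to 2.03 and 1.91 in TKO. With 2 libraries against 2, an exact two-sided permutation test cannot give a p below 0.333, and that was the value for each of these contrasts.

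**Figure D4:**
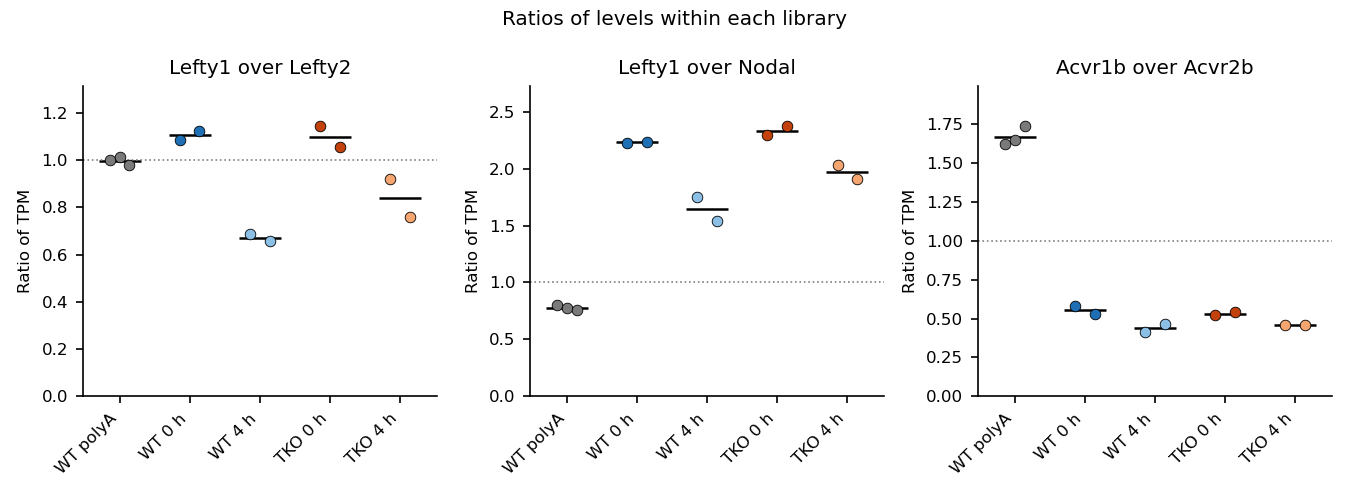
Ratio of TPM (vertical axes, from 0, with a dotted line at 1) of Lefty1 to Lefty2, Lefty1 to Nodal and Acvr1b to Acvr2b in each library (points), by group, with group means as bars. The ratio of Lefty1 to Lefty2 is 0.657 to 0.921 in the 4 treated libraries, above 1 in the 4 untreated ribodepleted libraries and 0.980 to 1.01 in the polyA libraries, and that of Acvr1b to Acvr2b is above 1 in the polyA libraries only.

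To ask how loss of the Tet proteins bore on these genes before treatment, TKO was compared with WT at 0 h. No member passed both criteria, while 10.5% of all genes were called higher in TKO and 5.43% lower. By the adjusted p alone, Lefty2, Lefty1 and Tdgf1 were higher and Smad7 was lower in TKO, 3 and 1 of 8 members, where 27.8% of all genes were higher and 28.2% lower (3471 and 3518 genes, or 4168 and 2191 with deposited TPM). Leaving out any of the 4 libraries left Lefty2 as the 1 member higher and 0 lower, and so did omitting the variance trend. The median member change was 0.13 on the log2 scale, against -0.02 over all genes.

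Lefty2 was at 110.7 and 108.3 TPM in WT and at 134.5 and 148.5 TPM in TKO at 0 h, a log2 difference of 0.27 (SE 0.06, adjusted p = 0.00362, limma). Lefty1, at 120.1 and 121.4 TPM in WT, was at 153.6 and 156.9 TPM in TKO, with a log2 difference of 0.26 (SE 0.10, adjusted p = 0.0482). Both TKO libraries were above both WT libraries for each antagonist, and the ratio between the antagonists was alike in the genotypes, at 1.10 ± 0.06 (SD, n = 2) in TKO and 1.10 ± 0.03 in WT. Lefty1 lost the adjusted p threshold with size factors over all genes (0.23, adjusted p = 0.0765).

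Tdgf1 was at 780.4 and 767.2 TPM in TKO against 686.7 and 635.4 TPM in WT, a log2 difference of 0.13 (SE 0.05, adjusted p = 0.0421, limma) that varied with the scaling, from 0.10 (adjusted p = 0.115) with size factors over all genes to 0.23 (adjusted p = 0.00311) with deposited TPM and 0.28 (adjusted p = 0.00229) with quantile normalisation. Smad7 was the member that was lower in TKO, at 34.9 and 34.2 TPM against 40.7 and 38.8 TPM (-0.29, SE 0.10, adjusted p = 0.0331). Its WT and TKO libraries did not overlap, but with deposited TPM the difference was -0.20 (adjusted p = 0.19), and without any 1 of the 4 libraries its adjusted p was 0.078 to 0.116. The ligand Nodal was at 67.0 and 66.2 TPM in TKO and 53.9 and 54.4 TPM in WT, also without overlap (0.20, 95% interval -0.01 to 0.41, adjusted p = 0.0967), and it passed the adjusted p with quantile normalisation (0.26, adjusted p = 0.0401). Acvr2b did not pass (0.13, adjusted p = 0.0532) except with deposited TPM (0.23, adjusted p = 0.0158). Skil (0.10, adjusted p = 0.268) and Acvr1b (0.07, adjusted p = 0.363) did not pass.

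At 4 h of treatment, the ligand and both antagonists were higher in TKO by the adjusted p. Lefty1 was higher in TKO by both criteria, as were 11% of all genes, with 5.82% lower. By the adjusted p alone, Nodal, Lefty1, Lefty2 and Skil were higher and none was lower, 4 of 8 members, where 29.1% of genes were higher and 30.3% lower (3625 and 3779 genes, or 5035 and 2066 with deposited TPM). The split moved with the scale. By both criteria the calls numbered 1375 higher and 725 lower in the fit described and 1053 and 870 with quantile normalisation. They numbered 1940 and 444 with deposited TPM, on which the all-gene median was 0.14. The median member change was 0.14, against -0.01 over all genes. These comparisons use the same 4 h libraries as the treatment comparisons, and the interaction above is the test of whether the genotypes differ in their response.

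Lefty1 was at 54.8 and 56.8 TPM in WT and at 117.7 and 85.3 TPM in TKO at 4 h, a log2 difference of 0.68 (SE 0.10, adjusted p = 0.000434, limma), or 1.60-fold. The lower of the TKO libraries was still above both WT libraries. Without TKO replicate 1 the difference was 0.50, under the fold limit, and with deposited TPM it was 0.83, or 0.70 relative to the shift of all genes. Nodal, at 31.3 and 36.9 TPM in WT and 57.9 and 44.7 TPM in TKO, differed by 0.42 (SE 0.09, adjusted p = 0.00436). Lefty2, at 79.8 and 86.5 TPM in WT and 127.8 and 112.7 TPM in TKO, differed by 0.37 (SE 0.06, adjusted p = 0.000593).

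Skil was at 53.6 and 57.1 TPM in WT and 79.7 and 64.8 TPM in TKO at 4 h, a log2 difference of 0.22 (SE 0.08, adjusted p = 0.0349, limma), or 0.18 with an adjusted p of 0.0716 with size factors over all genes. Smad7 overlapped between genotypes, at 24.9 and 24.7 TPM in WT and 29.0 and 20.9 TPM in TKO (-0.16, 95% interval -0.39 to 0.07, adjusted p = 0.197), but without TKO replicate 1 it was lower in TKO by the adjusted p (-0.34, adjusted p = 0.00141) and Skil no longer passed (0.12, adjusted p = 0.181). Skil also failed without either WT library at 4 h (adjusted p of 0.163 and 0.0886). The differences of Tdgf1 (0.02), Acvr1b (0.06) and Acvr2b (0.01) were small, with intervals of -0.09 to 0.13, -0.09 to 0.22 and -0.11 to 0.13, and the sign of each was negative in at least one other scaling. Tdgf1 was higher by the adjusted p with deposited TPM (0.18, adjusted p = 0.0104, limma) and with quantile normalisation (0.23, adjusted p = 0.00577).

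Other features of the cells moved with genotype as well. Of the 6 trophectoderm markers, the 3 tested (Krt8, Krt18 and Hand1) were all called higher in TKO at both times, and the list summed to 1005 to 1121 TPM in TKO and 137.1 to 175.1 TPM in WT ribodepleted libraries. Krt8 and Krt18, which encode keratins found in many epithelia, made up almost all of that sum, while the defining markers Cdx2, Elf5 and Gata3 stayed at or below 1.38 TPM. Among the 9 pluripotency markers, Zfp42, Klf4 and Esrrb were called lower in TKO, with Zfp42 at -2.08 on the log2 scale at 0 h. By the adjusted p at 0 h, 6 of the 9 were lower, Pou5f1, Sox2 and Utf1 in addition to those called. Dppa5a and Tdgf1 were higher, and Nanog differed by 0.16 (adjusted p = 0.127, limma). At 4 h, 5 were lower and 0 higher by the adjusted p. Of the 5 primed epiblast markers, Fgf5 and Sox3 were called higher. At 0 h Pou3f1 was higher by the adjusted p alone, with means of 6.76 scaled TPM in WT and 10.1 in TKO. Dnmt3b (-0.31) and Otx2 (-0.41) were lower at 0 h by the adjusted p. The median log2 change of the list at 0 h was 0.52. The list summed to 265.6 to 269.1 TPM in TKO against 299.2 to 303.9 TPM in WT at 0 h. Most of that sum was Dnmt3b, with means of 244.5 TPM in TKO and 283.7 TPM in WT. Of 5 two-cell-like markers the 2 tested, Tcstv1 (2.09) and Tcstv3 (1.82), were called higher at 0 h. The list summed to 9.52 to 9.56 TPM in TKO and 0.153 to 0.306 TPM in WT at 0 h. Fgf5, Sox3, Hand1, Tcstv1 and Tcstv3 had group means of at most 0.51 scaled TPM in WT ribodepleted libraries. They passed the limit for testing, a mean scaled TPM above 1, only through TKO, so being tested favoured a call of higher. Of 4 fibroblast markers tested Col1a2 was called higher (1.18) at 0 h. Of 2 endoderm markers tested at 0 h, Gata4 was called lower (-0.61) and Dab2 was higher by the adjusted p alone. Their means in WT and TKO were 1.95 and 0.93 scaled TPM for Gata4 and 1.00 and 1.78 for Dab2. Gata4 passed the limit for testing only through WT, and neither was called at 4 h. The 2 mesendoderm markers tested were not called at 0 h. The part of these differences in the levels of Nodal, Lefty1 and Lefty2 was not tested.

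The 3 polyA libraries were compared with the untreated WT ribodepleted libraries to show how far the level of each gene depends on the kind of library. Of the 8 members, Tdgf1 and Acvr1b were called higher and Lefty1, Lefty2 and Acvr2b lower in polyA libraries, in a fit where 18.7% of 12478 genes were called higher and 16.4% lower. RNA selection, sequencing platform and culture cannot be told apart in this comparison.

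Both antagonists were far lower in polyA libraries. Lefty1 was at 42.1, 44.9 and 40.8 TPM, against 120.1 and 121.4 TPM in ribodepleted libraries, a log2 difference of -1.58 (SE 0.04, adjusted p = 1.1e-08, limma). Lefty2 was at 42.1, 44.4 and 41.7 TPM against 110.7 and 108.3 TPM (-1.44, SE 0.04, adjusted p = 7.43e-09, limma). The ligand did not share this difference. Nodal was at 52.6, 57.6 and 53.9 TPM in polyA and 53.9 and 54.4 TPM in ribodepleted libraries (-0.09, 95% interval -0.19 to 0.015, adjusted p = 0.0996), and the sign turned to 0.013 with deposited TPM. Consequently the ratio of Lefty1 to Nodal was 0.758 to 0.800 in polyA libraries and 2.23 in ribodepleted WT libraries at 0 h, so which of ligand and antagonist appeared the more abundant depended on the library.

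Tdgf1 was at 1877, 2040 and 1996 TPM in polyA libraries and 686.7 and 635.4 TPM in ribodepleted ones (1.47, SE 0.05, adjusted p = 3.25e-08, limma). The receptors moved in opposite directions. Acvr1b was at 24.6, 27.3 and 24.3 TPM in polyA and 14.5 and 12.7 TPM in ribodepleted libraries (0.76, SE 0.06, adjusted p = 5.01e-06). Acvr2b was at 15.2, 16.5 and 14 TPM against 25.0 and 23.9 TPM (-0.75, SE 0.06, adjusted p = 5.01e-06). The type I receptor was therefore above the type II receptor in every polyA library, with a ratio of 1.62 to 1.74, and below it in every ribodepleted library, with a ratio of 0.413 to 0.582. Skil was at 59.3, 60.5 and 56.9 TPM in polyA libraries (-0.45, adjusted p = 4.19e-05) and Smad7 at 46.2, 46.6 and 47.7 TPM (0.13, adjusted p = 0.0153), both within 1.5-fold of the ribodepleted level.

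Beyond the 8 members, 46 other genes were examined, of which 34 were high enough to be tested in the ribodepleted libraries. They are called pathway genes here, but the list takes in the wider TGF-β family, with Tgfbr1, Tgfbr2, Acvr1 and Smad6. A call in it is therefore not by itself a change in Nodal signalling. In TKO at 0 h, 4 of the 34 were called higher and 0 lower, with a median log2 change of 0.09, where 10.5% of all genes were called higher and 5.43% lower. The 4 were Furin, a protease that processes the Nodal precursor (0.91, SE 0.09), Tgfbr2, the type II TGF-β receptor (1.27, SE 0.10), the signal transducer Smad3 (0.73, SE 0.07) and the inhibitory Smad6 (0.97, SE 0.10). Tgfbr2 was low at 0 h, at 0.597 and 0.622 TPM in WT and at 3.08 and 3.14 TPM in TKO. Its WT means were 0.60 scaled TPM at 0 h and 0.74 at 4 h, below the limit of 1 for testing. Tgfbr2 was thus tested only through TKO, which favoured its calls of higher at 0 h and 4 h. Smad3 was at 7.57 and 7.22 TPM in WT and 13.8 TPM in both TKO libraries. Among transducers below the fold limit, Foxh1, the DNA-binding partner of the Smads, was at 74.3 and 73.0 TPM in WT and 106.6 and 107.1 TPM in TKO (0.44, adjusted p = 5.58e-05, limma), and Smad2 differed by -0.15 (adjusted p = 0.0529) and Smad4 by 0.11 (adjusted p = 0.078).

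At 4 h, 7 of the 34 were called higher in TKO and 1 lower, with a median of 0.08, beside 11% and 5.82% of all genes. By group, these were 1 of 4 ligand and processing genes (Furin, 0.95), 2 of 4 receptors (Tgfbr2, 0.81, and Acvr1, 0.66, the latter not called with quantile normalisation), 1 of 8 transducers (Smad3, 0.77) and 3 of 15 inhibitors (Smad6, 0.78, Bambi, 0.77, and the ubiquitin ligase Smurf2, 0.64). Of the 3 tested target genes, none was higher and T, a mesoderm factor, was lower (-0.61). T was at 2.12 TPM or less in every library and was not called with deposited TPM. Upon treatment, Bambi, a decoy receptor, fell in WT (-0.64, adjusted p = 0.00903, limma), from 3.66 and 4.35 TPM to 1.66 and 2.35 TPM, but was not called with quantile normalisation. It was the one called among the 34, while 3 were called with deposited TPM. In TKO 0 of 34 were called upon treatment. The medians were -0.10 in WT and -0.05 in TKO.

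**Figure D5:**
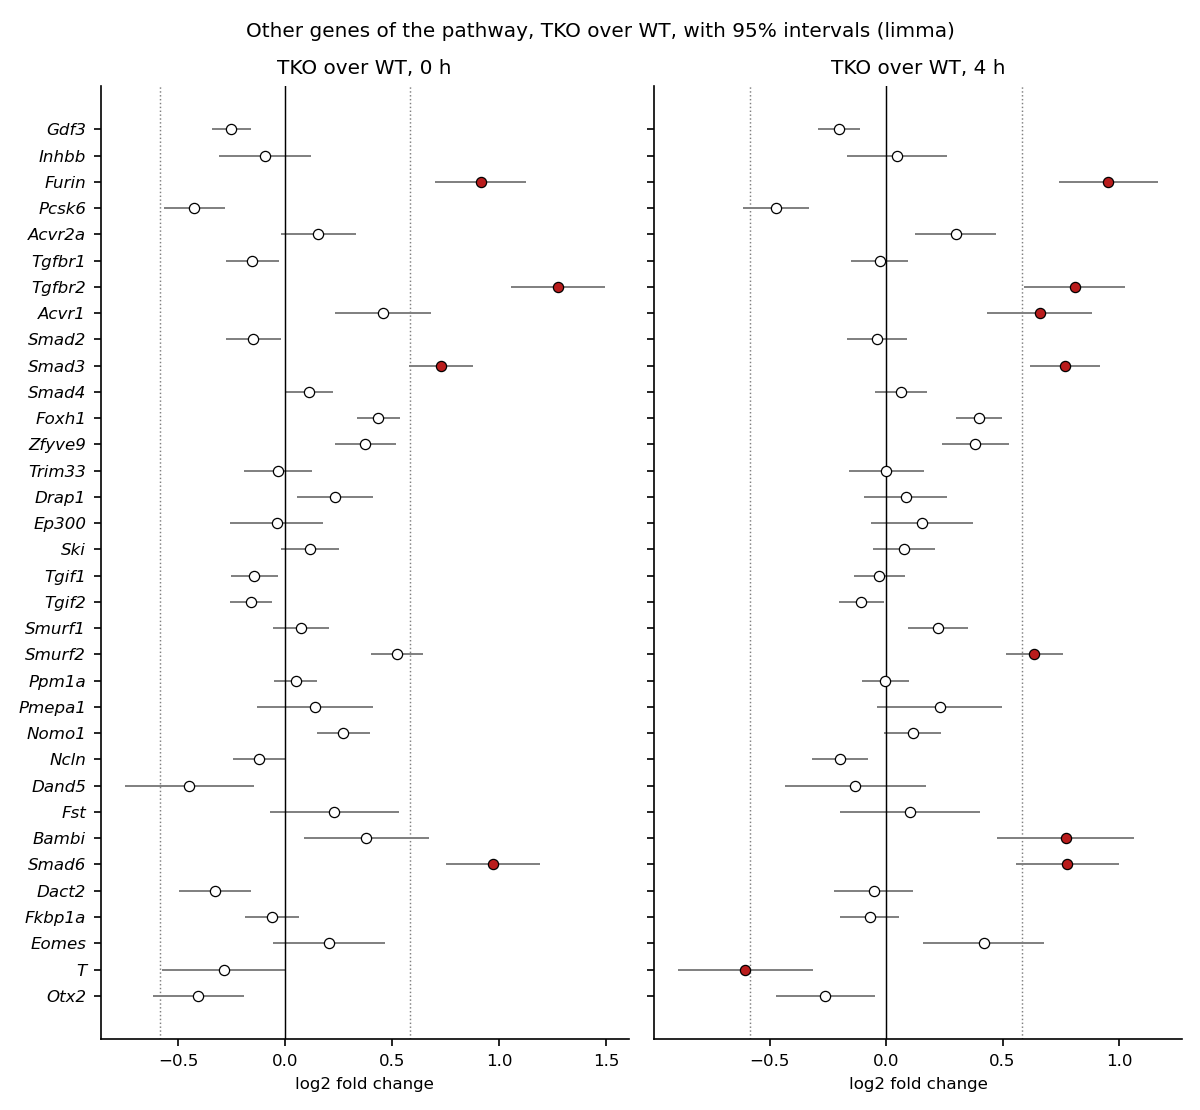
Log2 fold change of TKO over WT (horizontal axes) at 0 h and 4 h for the 34 other pathway genes that were tested (vertical axis), with 95% intervals from limma as bars, filled points where a gene was called, and dotted lines at 1.5-fold. Furin, Tgfbr2, Smad3 and Smad6 are filled in both panels, and most other genes lie within the dotted lines.

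In the polyA comparison, 33 other pathway genes were tested, of which 8 were higher and 5 lower in polyA libraries, with a median of -0.04, beside 18.7% and 16.4% of all genes. Among ligands and their processing, the inhibin subunit gene Inha (1.73), Inhbb, which encodes an activin subunit (1.2, SE 0.04), and Furin (0.65) were higher. Inhbb was at 66.9 to 73.2 TPM in polyA and 27.3 to 28.2 TPM in ribodepleted libraries at 0 h. Of the receptors, Acvr1 was higher (0.67) and Tgfbr1, a type I receptor, lower (-0.72). Of the transducers and partners, Ep300 (0.87) and Drap1 (0.74) were higher and Foxh1 (-0.84), Smad3 (-0.73) and Zfyve9 (-0.66) lower. Fkbp1a, which binds type I receptors (1.64), and the target gene Eomes (1.10) were higher, and Fst, which encodes the activin antagonist follistatin, lower (-1.08). Inha averaged 3.33 TPM in polyA and 0.264 TPM in ribodepleted libraries at 0 h, and Fst 0.868 and 2.78 TPM. Each passed the limit for testing only through the libraries where it was high, which favoured its call.

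The profiles of the members over the 8 ribodepleted libraries were compared with each other and with 8099 other genes at a mean scaled TPM above 10, as a description across libraries that share genotype and treatment. Nodal ran most closely with Lefty1 (Pearson r = 0.978 on log2 values), and with Skil at 0.935 and Lefty2 at 0.900. Tdgf1 went with Acvr2b (0.886) and not with Nodal (-0.07). The genes most alike in profile were, in order, Sema4b, D11Wsu47e, Zfand5, Mllt1 and BC017643 for Nodal (0.986 to 0.988). For Lefty1 they were Pramef8, Kis2, Ifrd1, Tor1b and Rnd3 (0.991 to 0.997), and for Lefty2 Cttnbp2nl, Znhit2-ps, 1110038D17Rik, Akap10 and Cep68 (0.988 to 0.995). For Tdgf1 they were Mtif2, Ube2q2, Azi1, Rrbp1 and Atg2a (0.955 to 0.966).

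Promoter entries of 300 bases from RefSeq (GRCm38.p6) were at hand for Nodal, Tdgf1, Acvr1b and Acvr2b, 4 of the 8 members, and not for Lefty1, Lefty2, Smad7 and Skil. On either strand, AATNNACA, a loose FoxH1-type pattern in which each N is any base, was found 2 times for Tdgf1. It was not found for the other 3, where 12.2% of 32851 promoters hold it. Both Tdgf1 copies read AATTTACA, so they match through the open bases and need not be FoxH1 sites. Binding was not tested. CAGAC, a Smad-type motif, was found once each for Tdgf1 and Acvr2b, where 49.6% hold it, and the palindrome GTCTAGAC was found in none of the 4, where 0.2% hold it.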

How the data were processed

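RNA-seq of 11 libraries was grouped by sample title into 5 groups. The study describes the α-amanitin RNA-seq as biological duplicates, and states independent repeats of its experiments in general terms, without naming the polyA libraries, so p-values there may measure technical spread. The deposited files hold TPM, which the authors computed from HTSeq counts. Per their methods, reads were cleaned with AfterQC, Bowtie2 (against ribosomal and transfer RNA) and Trimmomatic, and STAR aligned them to mm9. Tool versions, and how the counting treated strand, are not given in the sources used here. None of the 8 members overlaps another annotated gene in GENCODE vM1.

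Size factors (median of ratios over genes with a mean scaled TPM above 1) of 0.891 to 1.09 were applied to the 8 ribodepleted libraries. On log2(scaled TPM + 1), limma 3.58.1 (R 4.3.3) fitted 1 coefficient a group with no block and a variance trend. Fold changes are on this scale, which understates low genes. Adjusted p are Benjamini-Hochberg over all genes tested, two-sided, and a gene was called at an adjusted p under 0.05 and over 1.5-fold, the limits of the study, which used DESeq2 on counts not analysed here. The untreated WT libraries of both kinds had a fit of their own. Whole reads were recovered from the TPM steps of all 19869 genes above 0, up to a divisor common to a gene's libraries, for depth and for limma voom. Replicates differed by 1.53 to 10.6 times the chi-square expected from sampling, so none was merged. The fit was tested on simulated data, and BLAST 2.17.0 found near copies.

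The members and gene lists were chosen with earlier results of these data known. All members are named in each comparison, and of the other pathway genes those called. A pathway gene and a stretch of sequence are not reported here, and the gene was left out of the list's counts. Foxh1, Smad2, Smad4 and the marker genes were named after their values were seen. The alternatives were other scalings, pseudocounts (0.1 and 5 TPM) and filters, a replicate block, no fold limit, no variance trend, voom, fits of only the groups compared, and leaving out each library.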

Additional observations from a re-analysis of the deposited data

How the results depend on the processing

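Of 560 values of members under settings other than leaving out a library, 531 kept direction and side of the call, 17 became calls, 0 lost a call and 12 turned sign. With deposited TPM, members called lower upon treatment numbered 3 in WT and 1 in TKO, in place of 1 and 0. Without the fold limit, 3 members were higher and 1 lower in TKO against WT at 0 h, 4 were higher at 4 h, and 1 was higher and 5 lower upon treatment in WT, which follows from dropping the limit. For the other turns the cause was not tested. Signs turned upon treatment in WT for Tdgf1 (-0.0536 with deposited TPM, -0.0731 with quantile normalisation) and in TKO for Acvr2b (-0.0599, deposited TPM). In the interaction Acvr1b turned (0.0452 with deposited TPM, 0.0033 with a mean scaled TPM above 5), and in polyA against ribodepleted libraries Nodal did (0.013, deposited TPM). Between genotypes at 4 h, quantile normalisation turned Acvr1b (-0.0253) and Acvr2b (-0.0204), and size factors over all genes, as well as no filter, turned Tdgf1 (-0.0214) and Acvr2b (-0.0323).

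Leaving out each library in turn, where a lone library is assumed to vary like the other groups, gave 0 to 1 members called higher between genotypes at 4 h, 1 to 2 lower upon treatment in WT, 0 to 1 lower upon treatment in TKO and 0 to 1 higher in the interaction. The TKO libraries and WT replicate 2, all at 4 h, decided these calls. By the adjusted p alone, the members passing ranged more widely: 1 to 4 lower and 0 to 1 higher upon treatment in WT, 0 to 4 lower in TKO, 1 higher and 0 lower between genotypes at 0 h, and 3 to 4 higher and 0 to 1 lower at 4 h. Ranges that crossed zero were -0.0473 to 0.0447 for Acvr2b and -0.34 to 0.0258 for Smad7 between genotypes at 4 h, -0.0244 to 0.0133 for Tdgf1 upon treatment in TKO, and -0.0757 to 0.0576 for Acvr1b and -0.0435 to 0.32 for Smad7 in the interaction. Lefty1 ranged from -0.98 to -0.91 upon treatment in WT, from -0.71 to -0.34 in TKO, from 0.50 to 0.87 between genotypes at 4 h and from 0.23 to 0.60 in the interaction.

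Same-numbered libraries of different groups correlated at -0.04 to 0.12 in their deviations from group means, so the numbers were not taken as pairs. With the replicate number as a block, no call of a member changed and Lefty1 kept its change in WT (-0.94, adjusted p = 0.00314, limma), while 1 member in place of 3 was higher by the adjusted p between genotypes at 0 h, Lefty1 reaching 0.0506 and Tdgf1 0.0522.

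Counts over all genes varied more. Genes called lower upon treatment numbered 251 in WT, against 585 with deposited TPM, 382 with voom and 148 with a pseudocount of 5 TPM, and 20 in TKO, against 51 with deposited TPM, 48 with voom, 0 without a variance trend and 130 without TKO replicate 1 at 4 h. Those called higher in WT numbered 11, between 1 (pseudocount of 5 TPM) and 34 (voom). Between genotypes, 1309 higher and 677 lower at 0 h became 550 and 354, and 1375 and 725 at 4 h became 582 and 416, with a pseudocount of 5 TPM. In polyA libraries, 2339 higher and 2047 lower became 1500 and 1358.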
